A study of Homo sapiens with 8 samples.

Results

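A set of 50 human genes of actin dynamics and cell adhesion was followed through the splicing changes that came with depletion of CELF2, an RNA-binding protein that regulates alternative splicing, and with PMA, a phorbol ester used to mimic part of T cell activation through protein kinase C. The cells were JSL1, a monoclonal T lymphocyte line derived from the Jurkat leukaemia line. The members were chosen by name for their roles, with earlier results of these data known. Every local splicing variation (LSV) listed under a member was used. An LSV is an exon from which, or into which, more than 1 splice junction runs, and the share of each junction, E(PSI), is its part of the reads at that exon. LSVs were listed for 49 of the 50 members in the table of PMA-treated cells and for 47 in the table of unstimulated cells, out of 11431 genes listed in either table. CYFIP1 was listed in neither, and ITGAL and SSH3 had no listed LSV in unstimulated cells. Members held 779 LSVs with PMA and 748 without.

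The 4 groups compared were each of 2 libraries of polyadenylated RNA: PMA-treated CELF2-depleted cells, PMA-treated control cells, unstimulated CELF2-depleted cells and unstimulated control cells. The PMA treatment was 48 hours at 20 ng/mL. Depletion was by stably integrated lentiviral hairpins against CELF2 that doxycycline induces. The sources used here do not give whether control cells carried a hairpin or received doxycycline. Both libraries of a group were combined into 1 value by the authors, so each share below is 1 value per group with no spread between libraries, and the number of reads behind it is unknown. The error measure is the authors' posterior probability that a share differs by at least 20 percentage points between depleted and control cells. A call means that this probability reached 0.95 in a junction, and a member was called where any of its LSVs held such a junction. Shares in the tables end at 2.5% and 97.5%, so those 2 values are limits. The tables hold no expression values, so the amount of CELF2 could not be checked, and fewer transcripts of a gene could not be seen. In CELF2 itself, 3 of 16 listed LSVs were called with PMA and 0 of 11 without. Of 13 T cell marker genes, 11 had a listed LSV in each table, against 2 of 6 B cell, 0 of 6 myeloid and 0 of 5 epithelial marker genes in each, and 1 of 5 fibroblast marker genes with PMA.

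Actin filaments grow and branch at the cell edge, and in T cells they build the contact with an antigen-presenting cell and drive migration. WASP and WAVE proteins switch on the Arp2/3 complex, which starts a filament branch, while Ena/VASP proteins lengthen filaments and tropomyosins coat them. Cofilin cuts filaments, LIM kinases switch it off and slingshot phosphatases switch it on again. Integrins tie the filaments to the outside through talin, kindlin, vinculin, paxillin and the ILK, PINCH and parvin complex, and focal adhesion kinases signal from these sites.

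CELF2 depletion came with called splicing changes in 18 of the 50 members. With PMA, 16 of the 49 listed members had a called LSV (32.7%), against 10.6% of all 11039 genes. Genes with more LSVs have more chances of a call, and members had a median of 14 LSVs against 7 for all genes. Among genes with a like number of LSVs, 17.4% were called, which is 8.54 of 49. In unstimulated cells, 9 of 47 members were called (19.1%), against 6.20% of all 10965 genes and 10.3% of genes with a like number of LSVs, which is 4.84 of 47. The largest junction difference of a member had a median of 16.2 points with PMA, against 9.8 points over all genes, and of 9.0 points without PMA, against 8.1 over all genes. Within genes of a like LSV number the median member stood at percentile 59.2 with PMA and 39.3 without, so the median member lay near the middle of such genes. No test across genes was run, as the members were chosen with results of these data known.

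**Figure D1:**
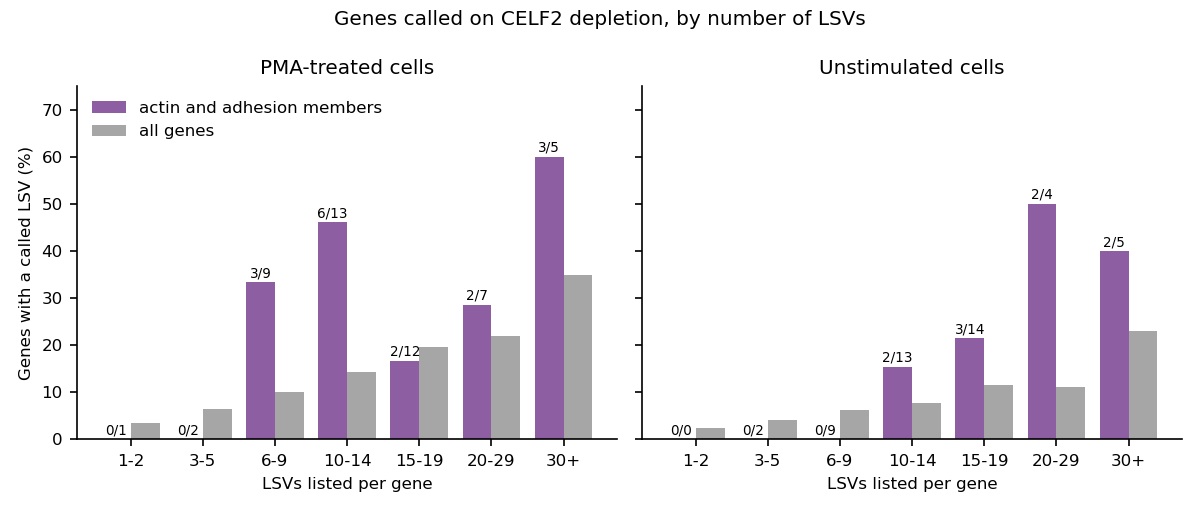
Percentage of genes with a called LSV on CELF2 depletion, by the number of LSVs listed for the gene, for the members (purple, with members called over members listed) and for all genes (grey), in PMA-treated cells (left) and unstimulated cells (right). With PMA, 6 of 13 members with 10 to 14 LSVs were called, against 14.23% of all such genes. Other bins differ: with 15 to 19 LSVs it was 2 of 12 members, against 19.59%. Without PMA, 0 of 9 members with 6 to 9 LSVs were called, against 6.21%.

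Called in both states were 7 members, PTK2B, PPFIA1, ABI1, SSH2, MACF1, MICAL1 and MICAL3. With PMA alone, 9 were called, LIMS1, FAT1, WASF1, CYFIP2, ARPC1B, CTTN, TPM1, TPM4 and DST, and 2 were called in unstimulated cells alone, EVL and LIMK2. A gene called in both states was not always called at the same LSV. The MACF1 and MICAL3 LSVs called without PMA were not listed with PMA, so no call was possible there. Elsewhere, as in MICAL1, a share could move the same way in both states and pass in only 1. An uncalled LSV is therefore not shown to be unchanged. Of the 28 LSVs called with PMA and the 11 called without it, 4 were called in both, which were both LSVs of the PTK2B exon and 1 each of ABI1 and PPFIA1. Over all genes, 1713 LSVs were called with PMA and 901 without, and their overlap was not counted. The overlap in members is therefore not shown to be particular to them. Whether depletion acted differently in the 2 states was not tested, since the tables were quantified separately and hold no posterior for that difference.

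**Figure D2:**
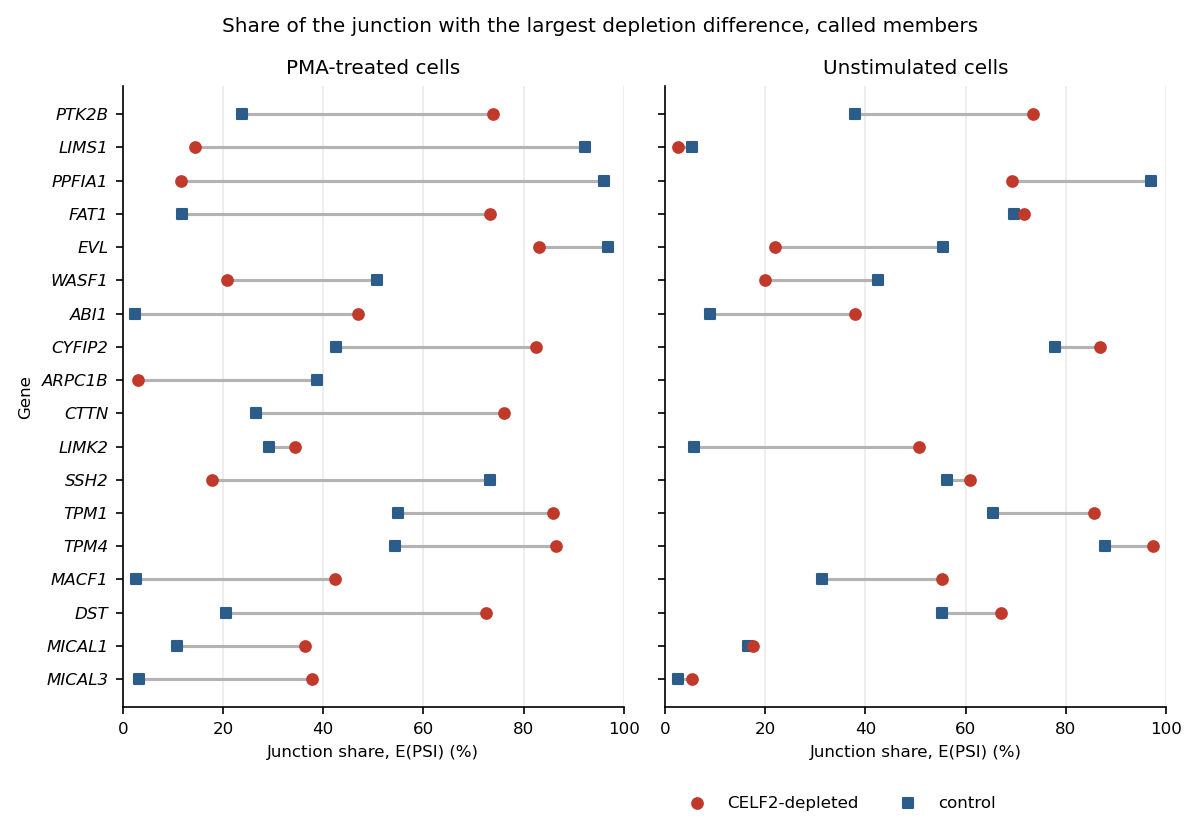
Share (%) of the junction with the largest difference between CELF2-depleted (red circles) and control cells (blue squares) in each of the 18 called members, in PMA-treated (left) and unstimulated cells (right). The junction was chosen in the PMA table, or in the unstimulated table for EVL and LIMK2, and ARPC1B and CTTN have no value on the right because that LSV was not listed there. Among the junctions shown, LIMS1 and PPFIA1 have the widest gaps with PMA, and LIMK2 the widest without it. The widest difference of a member without PMA lies at another MICAL3 junction, which is not shown. It had 73.9% in unstimulated depleted cells against 2.6% in unstimulated control cells.

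Among focal adhesion kinases and adhesion-site scaffolds, 3 of 11 members were called with PMA and 2 of 11 without. PTK2B encodes PYK2, the focal adhesion kinase relative that is prominent in blood cells. Its cassette exon of 126 nucleotides, or 42 codons, at chr8:27303311-27303436 (hg19) was included more in depleted cells in both states. Seen from the upstream exon, inclusion was 79.0% in PMA-treated depleted cells against 28.3% in PMA-treated control cells, and 80.9% in unstimulated depleted cells against 40.4% in unstimulated control cells. Seen from the downstream exon, it was 85.3% against 38.3% with PMA and 84.2% against 50.9% without. The depleted groups lay within 2 points of each other from each end, while the PMA-treated control cells lay below the unstimulated control cells. Both LSVs passed the call in both states, and the exon lies in coding sequence in GENCODE. This exon and its junctions gave 2 of the 4 LSVs called in both states.

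PPFIA1 encodes liprin alpha-1, a scaffold at focal adhesions that binds the phosphatase LAR. Its exon of 30 nucleotides at chr11:70197100-70197129 gave the largest difference of any member. From the exon just upstream, the junction into it had a share of 11.7% in PMA-treated depleted cells against 96.0% in PMA-treated control cells, and of 69.2% in unstimulated depleted cells against 97.1% in unstimulated control cells. That view covers few transcripts. The exon it starts from, which ends at 70196145, was itself joined in 11.1% of the junctions leaving the exon before it in PMA-treated depleted cells and 6.5% in PMA-treated control cells, and in 19.1% and 14.4% in unstimulated depleted and control cells. The junction that skips both exons, from 70194526 to 70200407, carried 88.7% in PMA-treated depleted cells against 92.1% in PMA-treated control cells, and 80.8% against 84.8% without PMA. Seen from the downstream exon, the junction from the 30-nucleotide exon had 2.5% in PMA-treated depleted cells against 4.7% in PMA-treated control cells, with a posterior probability of 8.06e-10. The same junction had 17.4% in unstimulated depleted cells against 13.6% in unstimulated control cells, with a posterior probability of 1.49e-05. There its share ran opposite to the upstream view. The skipping junction from 70196145 had 6.8% in unstimulated depleted cells against 2.5%, the lower limit, in unstimulated control cells. As a share of these 2 junctions, inclusion was 71.9% in unstimulated depleted cells against 84.5% in unstimulated control cells, the same direction as upstream. With PMA it was 21.9% in depleted cells against 65.3% in control cells. There the skipping junction had 8.9% in PMA-treated depleted cells against 2.5% in PMA-treated control cells. Each of these inclusion values with PMA therefore rests on a junction at the 2.5% limit. Neither junction was called from this end. With PMA the large difference concerned a minor form. The transcript in GENCODE that holds this exon does not code across it.

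LIMS1 encodes PINCH1, the LIM-domain partner of ILK. With PMA its first exon differed between depleted and control cells. The junction from 109151050 to 109276061 on chromosome 2 had a share of 84.2% in PMA-treated depleted cells, 7.1% in PMA-treated control cells, 97.2% in unstimulated depleted cells and 86.6% in unstimulated control cells. The junction from another annotated first exon, which ends at 109237917, to the same acceptor had 14.5%, 92.2%, 2.5% and 5.4% in the same order of groups. Both first exons hold the start of a coding sequence in GENCODE, so the alternative lies where the protein begins. The PMA-treated control cells stood apart from the other 3 groups, which spanned 12.0 points at the second junction. The LSV holds 9 junctions, at least 1 of them not in the authors' annotation. The other 8 scaffold members were called in neither state. ILK came nearest, with a posterior probability of 0.93 with PMA. Its junction from 6625590 to 6626083 on chromosome 11 had 30.9% in PMA-treated depleted cells against 3.4% in PMA-treated control cells. The remaining ones include VCL, which encodes vinculin and differed by at most 0.1 points on depletion in either state, and PXN, which encodes paxillin and had a first-exon junction at 81.0% in PMA-treated depleted cells against 63.7% in PMA-treated control cells.

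Of the 5 adhesion receptors, FAT1 was called with PMA and none was called without. FAT1 encodes a giant protocadherin that has been linked to Ena/VASP-dependent actin assembly. The called LSV, at the exon chr4:187627717-187630999, chose between 2 first exons that are non-coding in GENCODE. The junction from 187630999 to the nearer first exon at 187644818 had a share of 73.3% in PMA-treated depleted cells, 11.9% in PMA-treated control cells, 71.7% in unstimulated depleted cells and 69.6% in unstimulated control cells. The other first exon, at 187647508, had 26.7%, 88.1%, 28.3% and 30.4% in that order of groups. The other 3 groups spanned 3.7 points, and PMA-treated control cells stood 57.7 points away from the nearest of them. The integrin genes ITGB1, ITGB2, ITGA6 and ITGAL were not called. ITGA6, the alpha-6 integrin chain, showed the largest integrin difference, 21.4 points without PMA, at an intron with spliced shares of 68.5% in unstimulated depleted cells and 89.9% in unstimulated control cells.

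Among the Ena/VASP genes, EVL was called in unstimulated cells alone. EVL is the family member typical of blood cells. Its LSV at the exon chr14:100551024-100551435 joins several first exons. The junction from the first exon ending at 100531848 had a share of 83.0% in PMA-treated depleted cells, 96.8% in PMA-treated control cells, 22.0% in unstimulated depleted cells and 55.4% in unstimulated control cells. The more distant first exon ending at 100438394 had 14.6%, 2.5%, 73.1% and 41.6% in the same order. Depleted cells had the higher share of the distant first exon in both states, which passed without PMA at a posterior probability of 0.994 and did not pass with PMA at 0.0105. ENAH was uncalled in both states, with 48.9% in PMA-treated depleted cells against 28.8% in PMA-treated control cells at its widest junction. VASP differed by at most 7.3 points on depletion.

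Of the 7 listed WASP and WAVE members, ABI1, CYFIP2 and WASF1 were called with PMA and ABI1 without. All 3 encode subunits of the WAVE complex, which activates Arp2/3 downstream of RAC. In ABI1, a cassette exon of 87 nucleotides (29 codons, no in-frame stop) at chr10:27044584-27044670, on the minus strand, was included more in depleted cells. Seen from the downstream exon, the junction from this exon had a share of 46.9% in PMA-treated depleted cells, 2.5% in PMA-treated control cells, 37.9% in unstimulated depleted cells and 8.9% in unstimulated control cells. The junction that skips both this exon and the one before it, of 177 nucleotides, fell to 13.4% in PMA-treated depleted cells against 46.1% in PMA-treated control cells, and to 19.6% in unstimulated depleted cells against 45.2% in unstimulated control cells. Depleted cells lay above control cells in both states, by a wider margin with PMA. The exon is shown with 15 bases of each neighbouring exon in the spliced transcript, the exon in capitals, because it carries the added residues of the WAVE subunit.
ABI1, 87-nucleotide exon: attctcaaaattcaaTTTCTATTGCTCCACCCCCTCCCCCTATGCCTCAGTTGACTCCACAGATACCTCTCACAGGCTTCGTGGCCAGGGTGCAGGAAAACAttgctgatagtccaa

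CYFIP2 had the most called LSVs of any member, 5 with PMA and none without. CYFIP2 is the lymphocyte form of the RAC-binding WAVE subunit. At 2 places with PMA, annotated splicing was higher in depleted cells and sequence outside the GENCODE transcripts was lower. At the first, the junction from 156736842 to 156738672 on chromosome 5 had a share, seen from its acceptor, of 82.4% in PMA-treated depleted cells, 42.6% in PMA-treated control cells, 86.9% in unstimulated depleted cells and 77.9% in unstimulated control cells. The competing intron kept in the RNA had 17.0%, 53.4%, 12.9% and 20.1% in that order. At the second, an exon of 68 or 63 nucleotides ending at 156787630, in no GENCODE transcript by its junctions, was joined to the next exon in 7.1%, 37.7%, 2.5% and 8.1% in that order. At each of these junctions the PMA-treated control cells stood apart from the other groups. The called LSV at the exon chr5:156737102-156737201, which lies within the first of these introns and was listed with PMA alone, went the other way, with the intron before it kept in 83.3% in PMA-treated depleted cells against 52.2% in PMA-treated control cells, at a posterior probability of 0.962. The 68-nucleotide form is not a multiple of 3.

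WASF1 encodes WAVE1. Its called LSV lies in the 5′ leader, where the junction from the exon at 110481838 on chromosome 6 to the exon ending at 110448832 had a share of 20.7% in PMA-treated depleted cells, 50.8% in PMA-treated control cells, 19.9% in unstimulated depleted cells and 42.5% in unstimulated control cells. The posterior probability was 0.988 with PMA and 0.854 without, where another junction of the LSV reached 0.878. The difference was -30.1 points with PMA and -22.6 points without. WAS, which encodes the blood cell protein WASP, was uncalled with a posterior probability of 0.798 with PMA. WASF2, NCKAP1L and ABI2 were uncalled in both states, with WASF2 at 97.5% in all 4 groups at its widest junction.

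Among the Arp2/3 members, CTTN and ARPC1B were called with PMA. CTTN encodes cortactin, which holds branched filaments through a row of tandem repeats. Its cassette exon of 111 nucleotides at chr11:70267576-70267686 encodes 37 codons, the length of 1 repeat, and was included more in depleted cells with PMA. Seen from the upstream exon, the junction into it had a share of 78.1% in PMA-treated depleted cells, 41.1% in PMA-treated control cells, 76.3% in unstimulated depleted cells and 62.9% in unstimulated control cells. From the downstream exon, listed with PMA alone, it had 76.1% in depleted cells against 26.6% in control cells. PMA-treated control cells were lowest and the depleted groups were highest and close to each other. The exon before it is also 111 nucleotides long, and 73 of the 111 bases are the same in both (65.8%). The 2 exons are shown with the shared bases in capitals, since the event swaps the number of such repeats.
CTTN, preceding exon: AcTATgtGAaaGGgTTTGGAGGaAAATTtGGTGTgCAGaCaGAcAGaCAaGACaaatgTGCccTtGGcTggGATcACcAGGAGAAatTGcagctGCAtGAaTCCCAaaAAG
CTTN, cassette exon: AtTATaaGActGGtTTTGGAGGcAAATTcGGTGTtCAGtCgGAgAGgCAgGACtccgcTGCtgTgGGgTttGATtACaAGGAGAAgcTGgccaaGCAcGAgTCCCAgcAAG

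ARPC1B encodes the Arp2/3 subunit found mainly in blood cells. From a non-coding first exon ending at 98972201 on chromosome 7, the spliced junction to 98983325 had a share of 3.0% in PMA-treated depleted cells against 38.8% in PMA-treated control cells, and the intron after that first exon 96.3% against 60.6%. The acceptor at 98983325 took 2.5% of its reads from that junction in both PMA-treated groups, so the first exon is a minor one, and the LSV was not listed in unstimulated cells. CORO1A, CORO1B and ARPC2 were uncalled in both states. The widest of these on depletion was CORO1B, with 97.5% in PMA-treated depleted cells against 81.4% in PMA-treated control cells.

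In the cofilin cycle, SSH2 was called in both states and LIMK2 in unstimulated cells. SSH2 encodes slingshot-2, the phosphatase that reactivates cofilin. A different LSV passed the call in each state. With PMA, its exon at chr17:28002848-28003903 was followed by 1 of 2 exons. The junction to the exon at 28001177, which ends the transcript in some annotated forms, had a share of 82.2% in PMA-treated depleted cells, 26.8% in PMA-treated control cells, 39.2% in unstimulated depleted cells and 43.7% in unstimulated control cells. The junction to 27999147 had 17.8%, 73.2%, 60.8% and 56.3% in that order. The PMA-treated groups lay on either side of both unstimulated groups. A first-exon LSV was also called with PMA, where the junction from the first exon at 28088168 had 33.1% in depleted cells against 62.2% in control cells. In unstimulated cells the call was at another first-exon LSV, with 38.5% in depleted cells against 67.7% in control cells for the junction from 28256956. With PMA that junction had 47.9% in depleted cells against 70.3% in control cells, the same direction, at a posterior probability of 0.698.

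LIMK2 encodes a LIM kinase that switches cofilin off. At its exon chr22:31654277-31654470, the junction from the exon ending at 31644755, a first exon in annotated forms, had a share of 34.3% in PMA-treated depleted cells, 29.1% in PMA-treated control cells, 50.7% in unstimulated depleted cells and 5.7% in unstimulated control cells. The junction from 31621805 had 53.4%, 68.2%, 44.8% and 78.7% in the same order. Unstimulated control cells were lowest for the first junction, and the PMA-treated groups differed by 5.2 points. CFL1, which encodes cofilin itself, LIMK1 and SSH1 were uncalled in both states, with LIMK1 at 97.5% in every group at its widest junction, and SSH3 was uncalled with PMA at a posterior probability of 0.81.

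The crosslinkers ACTN1, ACTN4 and FLNA were called in neither state, and their largest depletion difference was 13.8 points, at a FLNA junction with 80.6% in unstimulated depleted cells against 94.4% in unstimulated control cells. Of the tropomyosins, TPM1 and TPM4 were called with PMA. In TPM1 the choice was among last exons. The junction from 63354844 to 63363289 on chromosome 15 had a share of 85.8% in PMA-treated depleted cells, 55.0% in PMA-treated control cells, 85.7% in unstimulated depleted cells and 65.4% in unstimulated control cells, and the junction to 63356263 had 8.9%, 34.8%, 11.2% and 24.2%. Depleted cells had the higher share of the distal last exon in both states, with a posterior probability of 0.989 with PMA and 0.702 without, where it did not pass. In TPM4 the junction from the annotated first exon ending at 16187507 on chromosome 19 had 86.5%, 54.3%, 97.5% and 87.9% in the same order, and PMA-treated control cells had 17.0%, 9.0% and 7.5% at 3 other junctions that stood at 2.5% in PMA-treated depleted cells. TPM3 was uncalled at 67.0% in PMA-treated depleted cells against 42.3% in PMA-treated control cells, with a posterior probability of 0.878. CAPZB and TMOD3, which cap filament ends, differed by at most 0.4 points on depletion.

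All 4 linkers and MICAL oxidoreductases were called with PMA and 3 of 4 without. Over all genes, 10.6% were called with PMA and 6.20% without. Of the 4, MACF1 and MICAL1 held 30 and 34 LSVs with PMA. Of all genes with 30 or more LSVs, 34.75% were called with PMA and 23.01% without. DST and MACF1 encode spectraplakins, which join actin to microtubules and intermediate filaments. In DST, an exon of 18 nucleotides (6 codons) at chr6:56333780-56333797, minus strand, was included more in depleted cells with PMA. Seen from the upstream exon, the junction into it had a share of 72.4% in PMA-treated depleted cells, 20.5% in PMA-treated control cells, 67.1% in unstimulated depleted cells and 55.3% in unstimulated control cells. PMA-treated control cells stood 34.8 points below the nearest other group. It is the shortest changed exon of the members and is shown in capitals between 15 bases of each neighbour.
DST, 18-nucleotide exon: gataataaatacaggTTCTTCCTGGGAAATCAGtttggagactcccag

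MACF1 was called at 2 LSVs with PMA and at a different one without. With PMA, the junction from the internal first exon ending at 39880149 on chromosome 1 had a share of 42.3% in PMA-treated depleted cells, 2.6% in PMA-treated control cells, 55.2% in unstimulated depleted cells and 31.4% in unstimulated control cells. Also with PMA, the junction from 39838268 to 39844133 had 48.5%, 11.9%, 73.9% and 50.5% in that order, against the junction to 39844875 which skips that exon. In unstimulated cells, the junction from 39793025 to 39815150, which skips an exon ending at 39812882, had 53.9% in depleted cells against 9.8% in control cells. That LSV was not listed with PMA. At the first 2 places depleted cells were above control cells in both states.

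The MICAL genes encode enzymes that oxidise actin and take filaments apart. MICAL3 was called at a different exon in each state, and in both the exon was close to absent in control cells. With PMA, an exon of 51 nucleotides (17 codons) at chr22:18286577-18286627 had an inclusion, seen from the upstream exon, of 37.8% in PMA-treated depleted cells, 3.2% in PMA-treated control cells, 5.4% in unstimulated depleted cells and 2.5% in unstimulated control cells. In unstimulated cells, an exon of 63 nucleotides (21 codons) at chr22:18309220-18309282 had 68.0% in depleted cells against 2.8% in control cells, and its LSVs were not listed with PMA. From the downstream exons the values were 32.7% against 3.5% for the first exon with PMA and 74.3% against 2.9% for the second without. Seen from the upstream exon, each of the other 3 groups was at 5.4% or less for the 51-nucleotide exon. Both exons are coding with no in-frame stop and are shown in capitals between 15 bases of each neighbour.
MICAL3, 51-nucleotide exon: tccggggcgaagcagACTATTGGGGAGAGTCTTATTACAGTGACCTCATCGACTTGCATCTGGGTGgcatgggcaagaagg
MICAL3, 63-nucleotide exon: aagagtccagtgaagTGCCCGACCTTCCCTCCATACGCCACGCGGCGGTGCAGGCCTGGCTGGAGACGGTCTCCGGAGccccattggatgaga

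MICAL1 was called on intron retention with PMA and on a neighbouring splice without. The retained intron after 109768780 on chromosome 6 had a share of 36.4% in PMA-treated depleted cells, 10.8% in PMA-treated control cells, 17.6% in unstimulated depleted cells and 16.5% in unstimulated control cells. The junction from 109768925 to 109769078 had 55.0%, 78.7%, 43.1% and 73.8% in the same order, with a posterior probability of 0.903 with PMA and 0.984 without. The share of this spliced junction was lower in depleted cells in both states, and a different LSV passed in each.

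**Figure D3:**
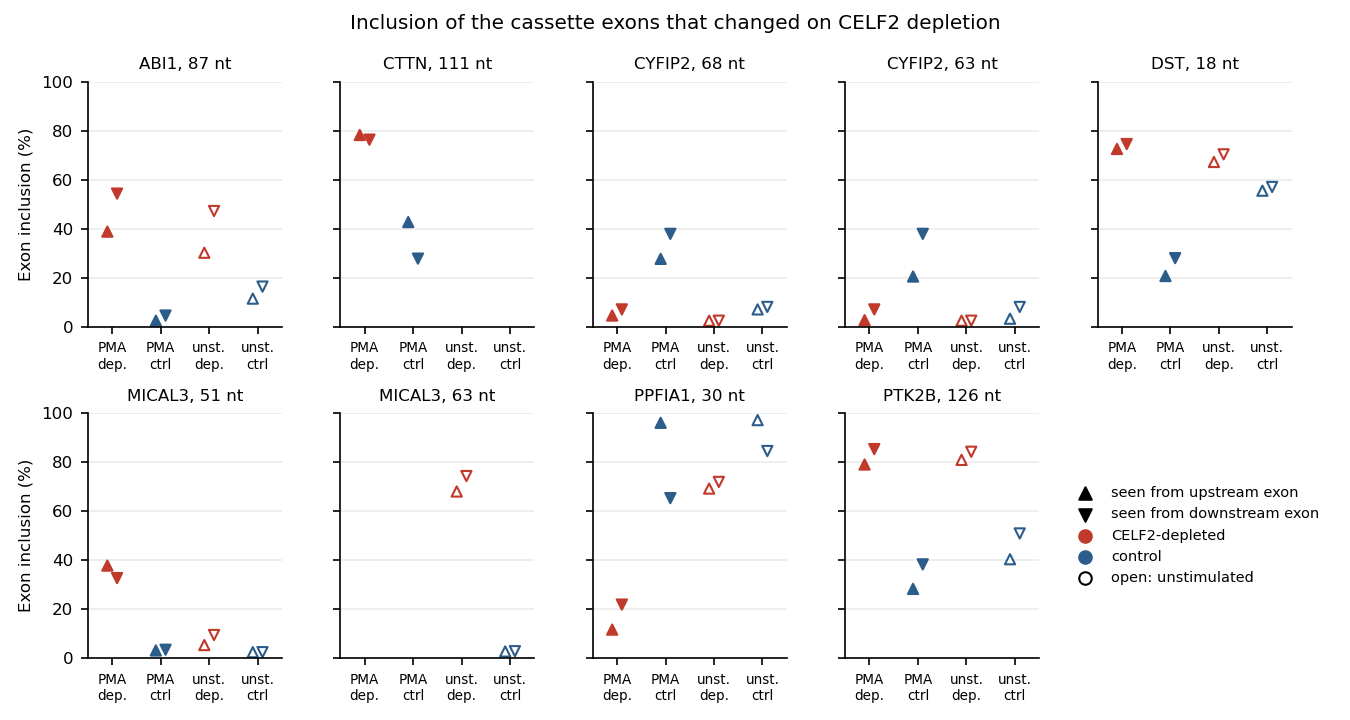
Inclusion (%) of the cassette exons that changed on CELF2 depletion, as the share of the inclusion junction among inclusion and skipping junctions, in each of the 4 groups (PMA, filled; unstimulated, open; depleted, red; control, blue), seen from the upstream (triangle up) and downstream exon (triangle down). A group without a point was not listed with all 3 junctions. For ABI1 skipping means joining the 177-nucleotide exon, and both CYFIP2 forms share their downstream junction. For PPFIA1 each downstream value with PMA rests on a junction at the 2.5% limit. PTK2B is above its control in both states, while the gap between depleted and control cells in DST is wider with PMA than without.

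Cassette exons made up 14 of the 28 called LSVs of members with PMA and 6 of 11 without, in 7 genes. First-exon choices made up 5 and 3, last-exon choices 2 and 0, retained introns 4 and 0, and other forms 3 and 2. The mix of types over all called LSVs was not counted, and a cassette exon can hold an LSV at each end. These counts therefore describe the members and show no difference from other genes. Over both tables, 7 members had a called first-exon choice. A call at such an LSV compares the use of junctions and does not separate a start site from the splicing that follows it. Of the 8 changed cassette exons of members with PMA, 7 had a length that is a multiple of 3, against 197 of 365 changed exons over all genes (54.0%). Without PMA it was 3 of 3, against 96 of 179 (53.6%). With PMA, 5 of the 8 were included more in depleted cells and 3 less, those of CYFIP2 and PPFIA1, against 138 more and 227 less over all genes. Of the 8, 2 were at most 30 nucleotides long, against 21 of 365 over all genes. Exons of 1 gene are not independent, since 2 of the 8 are forms of 1 CYFIP2 exon, so these counts are a description. The ABI1 exon, which has 2 upstream neighbours, was counted once. The PPFIA1 exon was counted in both states, although its downstream view rests on shares that include the 2.5% limit.

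A junction can belong to 2 LSVs, 1 at each end, which gives a second view of the same event. Called views were counted, so a junction called from both ends counts once at each end. Of 44 called views of members with PMA, 20 had the junction listed from the other end. In 14 of these it was called there too, with 18 of the 20 in the same direction and 1 in the opposite one. Without PMA, 12 of 20 called views had the junction listed from the other end. In 4 it was called there, and 10 went in the same direction and 2 in the opposite one. The 14 and the 4 hold both views of each such junction, so they stand for fewer distinct junctions. In PPFIA1, ARPC1B and 1 LSV of CYFIP2 the called view started from an exon with a small share of the junctions at its neighbours, and junctions without a second listed view could not be looked at in this way. Called LSVs of members held a junction outside the authors' annotation in 14 of 28 cases with PMA, against 1184 of 1713 called LSVs over all genes (69.1%), and in 6 of 11 without PMA, against 614 of 901 (68.1%).

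The members that were not called mostly differed little. With PMA, 20 of the 33 uncalled members had a largest difference under 10 points and 6 had 20 points or more, with a median of 7.2 points. Without PMA, 25 of 38 had under 10 points and 4 had 20 points or more, with a median of 7.95. An uncalled member is not shown to be unchanged, as reads per LSV are unknown.

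**Figure D4:**
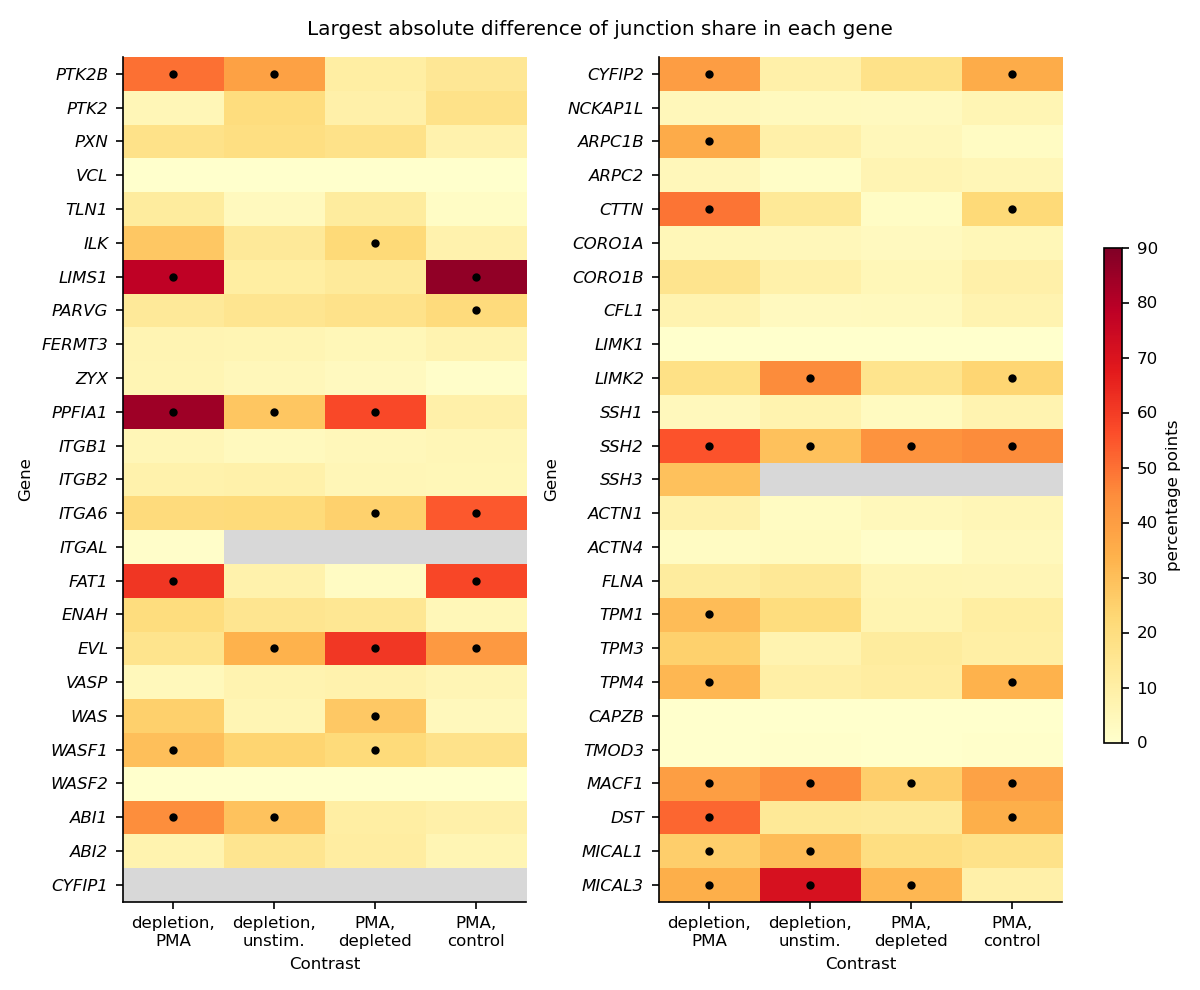
Largest absolute difference of junction share (percentage points, colour) of each of the 50 members, ordered by role, for CELF2 depletion in PMA-treated and unstimulated cells and for PMA in depleted and control cells. Black dots mark a call (depletion) or a difference of at least 20 points (PMA), and grey means no LSV was listed. SSH2 and MACF1 are marked in all 4 columns, while VCL, WASF2, LIMK1, CAPZB and TMOD3 are pale throughout.

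PMA itself, compared with no PMA, came with share differences of at least 20 points in 9 of 47 members in depleted cells and in 12 of 47 in control cells. This compares the 2 tables, which were quantified separately and hold no posterior for it, so sizes alone are given. In depleted cells that was 19.1% of members, against 11.4% of all 10517 genes and 16.2% of genes with a like number of LSVs. In control cells it was 25.5%, against 14.7% of all genes and 20.8% of genes with a like number. How the members stood against genes of like LSV number depended on the size asked for. In control cells it was 12 members against 9.76 at 20 points, 17 against 26.69 at 10 points and 9 against 2.87 at 30 points. In depleted cells it was 9 against 7.59, 23 against 25.44 and 4 against 1.85 at the same sizes. The depletion contrast with PMA and the PMA contrast in control cells share the PMA-treated control cells, so a value peculiar to that group appears in both, and the 4 group values above are given side by side for that reason.

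**Figure D5:**
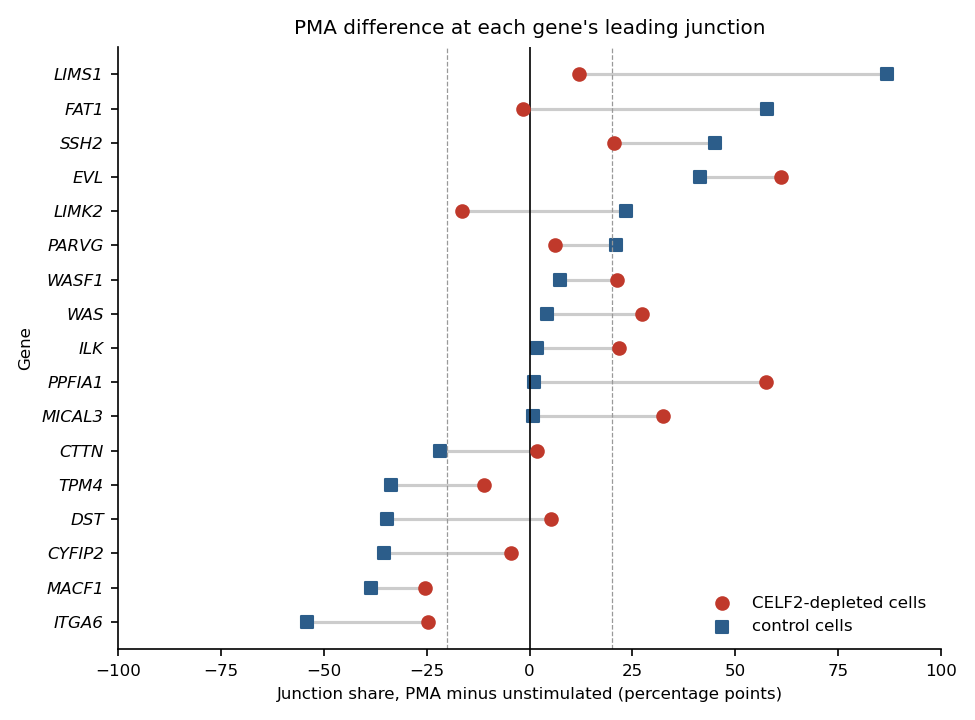
Difference of junction share, PMA minus unstimulated (percentage points), in CELF2-depleted (red circles) and control cells (blue squares), at the junction with the larger difference of the 2 in each of the 17 members that reached 20 points (dashed lines) in either. EVL and ITGA6 differed the same way in both kinds of cells, LIMS1 and FAT1 in control cells, and PPFIA1 and MICAL3 in depleted cells. The PPFIA1 junction is seen from a minor upstream exon.

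EVL and ITGA6 had PMA differences of at least 20 points in both kinds of cells at the same junction. In EVL, the junction from the first exon ending at 100531848 was 61.0 points higher with PMA in depleted cells and 41.4 points higher in control cells. In ITGA6, the intron between 173356059 and 173356153 on chromosome 2 was spliced in 43.8% in PMA-treated depleted cells against 68.5% in unstimulated depleted cells, and in 35.7% in PMA-treated control cells against 89.9% in unstimulated control cells. The rest of that LSV was retained intron, at 56.2%, 64.3%, 31.5% and 10.1% in PMA-treated depleted, PMA-treated control, unstimulated depleted and unstimulated control cells. MACF1 also did so, at the junction from 39838268 to 39844133, with -25.4 points in depleted cells and -38.6 points in control cells. SSH2 did so at the junction from the first exon at 28088168, with 20.6 points in depleted cells and 45.1 points in control cells, while its last-exon choice differed in opposite directions.

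Other members differed with PMA in 1 kind of cell. In control cells, LIMS1 differed by 86.8 points at the junction from 109237917, FAT1 by 57.7 at the junction from 187647508, CYFIP2 by -35.3, DST by -34.8, TPM4 by -33.6 and CTTN by -21.8 points. At those junctions the depleted cells differed by 12.0, -1.6, -4.5, 5.3, -11.0 and 1.8 points in the same order of genes. In depleted cells, PPFIA1 differed by 57.5 points at the junction that skips its 30-nucleotide exon, MICAL3 by 32.3 at the 51-nucleotide exon, WAS by 27.2 and ILK by 21.8 points. There the control cells differed by 1.1, 0.7, 4.1 and 1.9 points. The PPFIA1 difference is seen from a minor upstream exon. Seen from the downstream exon, the same junction had 8.9% in PMA-treated depleted cells against 6.8% in unstimulated depleted cells. PARVG, which encodes the parvin of blood cells, differed by 21.0 points in control cells and 6.1 points in depleted cells at a retained intron. The WAS difference was also at an intron, which was retained in 44.7% in PMA-treated depleted cells, 70.0% in PMA-treated control cells, 71.9% in unstimulated depleted cells and 74.1% in unstimulated control cells, and the spliced junction is in no GENCODE transcript. Among the Arp2/3, crosslinker and tropomyosin members no PMA difference reached 20 points in depleted cells, the widest being 11.8 points in TPM3.

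Taking the junction that leads each called member, 16 had values in all 4 groups. In 6 of them, LIMS1, FAT1, CYFIP2, TPM4, MACF1 and DST, PMA-treated control cells lay farther from the nearest other group than those 3 groups spanned. In 4, PPFIA1, SSH2, MICAL1 and MICAL3, PMA-treated depleted cells did so. In LIMK2 it was unstimulated control cells. The junctions were chosen for their depletion difference, mostly in the PMA table, which favours the PMA-treated groups standing apart, so this is a description of the members. With 2 libraries combined in each group, 1 library and the group cannot be told apart.

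A further 99 actin and adhesion genes that are not among the 50 were looked up as a list. With PMA, 13 of the 84 listed ones were called (15.5%), against 11.7% of genes with a like number of LSVs, and without PMA 3 of 82 (3.66%), against 6.67%. The widest with PMA were in ITGAE, the integrin chain of CD103, where a junction had 83.2% in depleted cells against 26.8% in control cells, and MICAL2, with 97.5% against 43.2%. GIT2, a paxillin-binding scaffold, followed with 80.6% in depleted cells against 26.7% in control cells, and PPFIBP1, which encodes a liprin beta that binds PPFIA1, with 51.6% against 2.5%. Without PMA the called ones were CAPG, a filament-capping protein, with 86.6% in depleted cells against 26.6% in control cells, WIPF1, the partner of WASP, with 81.0% against 38.8%, and GIT2, with 80.7% against 50.3%.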

How the data were processed

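Stranded libraries of polyadenylated RNA were sequenced by the authors, per the labels' protocols. STAR 2.5.1b and hg19 are named, without their roles, in the submitters' processing notes. The authors deposited 2 tables of MAJIQ/VOILA type, per the file headers, 1 for each state, each giving other values per LSV in lists: junction shares as a fraction for the depleted and the control group, their expected change, and the probability, under the authors' model, that the change reaches 20 points. The sources used here give neither depth nor the MAJIQ version and annotation. The authors' expected change can differ from the difference of shares in either direction, and their probability carries no adjustment for the many LSVs. No column of values per sample was left unused (0). The 8 libraries were in 4 groups by their titles.

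Shares were turned into percent with Python 3.11.15 and pandas 2.3.3 (figures with matplotlib 3.10.9), 1 line per junction. For each member and contrast the junction with the largest absolute difference of shares led. Named were members called in either table, those with the 8 largest PMA differences in each kind of cell, the lead of each role, and the other-list genes with the 4 largest differences in each state. Genes were binned by LSV number (1 to 2, 3 to 5, 6 to 9, 10 to 14, 15 to 19, 20 to 29, 30 or more), and the called share of each bin gave the background. Differences between tables used LSVs listed in both (87517). Alternatives were other thresholds, 2-junction LSVs, LSVs without junctions outside the authors' annotation, and LSVs in both tables. The members and lists were chosen with earlier results of these data known.

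A cassette exon had both inclusion junctions and the skipping one listed. It changed if both junctions of 1 side were called in opposite directions and the other side, where listed, moved alike by at least 10 points. This rule and the count of groups standing apart were set after values were seen. Junctions were matched to GENCODE release 29 by intron length within the gene, since that annotation is on another build. Exon sequences are from its transcripts and positions are hg19 from the tables. Intron sequence was not used here. The steps were tested on simulated data.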

Additional observations from a re-analysis of the deposited data

Results flagged for a closer look

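At 2 members PMA was linked with opposite differences in depleted and control cells, each of at least 10 points, at an LSV called on depletion. The share of all genes that meet this rule was not counted. The SSH2 junction from 27999147 to 28003838 differed by -43.0 points with PMA in depleted cells (17.8% against 60.8%) and by 16.9 points in control cells (73.2% against 56.3%). The LIMK2 junction from 31644755 to 31654277 differed by -16.4 points with PMA in depleted cells (34.3% against 50.7%) and by 23.4 points in control cells (29.1% against 5.7%). At the LIMK2 junction the unstimulated control cells, at 5.7%, stood apart from the other groups, and the LSV was called on that difference. Both genes act on cofilin, and a link between that and the differences was not tested. The difference between the kinds of cells was not tested, because each group is 1 combined value.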

How the results depend on the processing

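No paired analysis was possible because the deposited values combine both libraries of a group, and for the same reason no library could be left out. Against 16 members called with PMA, 2-junction LSVs alone gave 6 (4.58% of all genes, 3.37 members at like LSV number), LSVs without junctions outside the authors' annotation 10 (4.99%, 2.81), and an authors' expected change of at least 10 points 29 (37.5%, 27.14). Against 9 called without PMA, these gave 2 (2.49%, 1.64), 5 (2.86%, 1.61) and 17 (29.5%, 20.1). Against 9 members past 20 points with PMA in depleted cells, LSVs without such junctions gave 5 (5.04%, 2.69), a size of 10 points 23 (39.4%, 25.44) and of 30 points 4 (2.90%, 1.85). Against 12 in control cells, 2-junction LSVs gave 4 (6.22%, 3.78) and LSVs without such junctions 7 (7.21%, 3.75). The subsets hold fewer LSVs per gene, and with a size of 10 points in control cells 17 members stood against 26.69 at like LSV number, with 30 points 9 against 2.87. The other alternatives kept each count within 1.5 times: at a posterior probability of 0.99 the counts were 13 with PMA and 6 without, and WASF1, TPM1 and MICAL1 with PMA and PPFIA1, SSH2 and MICAL1 without were no longer called. LIMS1, WASF1, CYFIP2, ARPC1B, TPM4 and MICAL1 with PMA were called in no LSV that lacks junctions outside the authors' annotation. The same held for EVL, SSH2, MACF1 and MICAL1 without PMA. Read depth per LSV and spread between libraries are unknown, so errors rest on the authors' posterior probability alone.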
